A study of Mus musculus with 12 samples.

Results

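The TNF superfamily comprises a set of trimeric ligands, most of them anchored in the cell membrane, and the receptors that bind them. Some receptors carry a death domain in their intracellular part, through which they can recruit adaptors and caspases, while others bind TRAF proteins directly and lead to NF-kappa B and MAP kinase signalling, and a few are decoys that bind a ligand without passing the signal on. In the brain, TNF receptors are found on glia, vascular cells and neurons, and several members, among them TNF and the TWEAK receptor Fn14, have long been studied in ischemia. The members were taken by name from the deposited gene count table, as the protein-coding genes whose symbol starts with Tnfsf or Tnfrsf together with Tnf, Lta, Ltb, Ltbr, Cd40, Cd40lg, Cd27, Cd70, Fas, Fasl, Eda, Edar, Eda2r and Ngfr. This gave 46 of the 39756 genes in the table, which lists 21774 protein-coding genes. They comprise 19 ligands, 7 receptors with a death domain, 17 receptors without one and 3 decoy receptors.

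Poly(A) RNA was sequenced from the ischemic hemisphere of 12 mice labelled C57BL/6J, male and aged 9 to 10 weeks by the study's methods, with 4 mice in each of 3 groups. In the Vehicle and LJP groups the left middle cerebral artery was closed by a filament for 45 min and then reperfused (transient middle cerebral artery occlusion, tMCAO), whereas the Sham mice had the operation without the occlusion. LJP is a polysaccharide isolated from the brown alga Laminaria japonica, which was given into the stomach every day for 14 days before surgery and continued after it. Both the Sham and the Vehicle mice received saline on the same schedule. The study chose the middle of its 3 LJP doses for the experiments after its dose test, while the labels of the sequenced mice give no dose. How long after reperfusion they were killed is not given in the sources used here. The whole hemisphere holds infarcted and spared tissue together. Vehicle against Sham shows how the family differs after occlusion, and LJP against Vehicle how it differs with the polysaccharide.

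Total counts per mouse lay between 17960353 and 22216315. Where a gene has no count, up to 3 remain possible, and 3 counts are worth 0.129 to 0.173 CPM (read counts scaled to a common library size). Marker genes of neurons summed to 6286 to 7048 CPM in the Sham mice and those of astrocytes to 3640 to 4109 CPM, so both were abundant. Within the Vehicle group, mice 1 and 2 stood apart from mice 3 and 4. Vehicle mouse 2 had the highest sums of the endothelial markers (1443 CPM) and of the pericyte and fibroblast markers (1158 CPM) of all mice, and Vehicle mouse 1 had the highest neutrophil marker sum (207 CPM). Calls that are lost and fold changes that move by more than 1.5 times when 1 of them is left out are given that way too.

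Of the 46 members, 29 had enough counts for edgeR's quasi-likelihood test, which was fitted to 17558 genes of all 12 mice together with p-values adjusted by the Benjamini-Hochberg method. The other 17 lay under the count filter, 13 of them with 10 or more counts over the 12 mice and 4 (Cd40lg, Tnfsf4, Tnfsf15 and Tnfsf18) with fewer. Receptors passed the count filter more often than ligands, a difference that was not tested. All 3 decoys, 6 of the 7 receptors with a death domain and 12 of the 17 without one could be tested, but only 8 of the 19 ligands. Several costimulatory ligands were scarce. Cd40lg, the CD40 ligand, had 3 counts over all 12 mice, Tnfsf4, the OX40 ligand, had 4, Cd70, the ligand of CD27, had 10 and Fasl, the Fas ligand, had 16.

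After occlusion, more than 1 in 2 of the tested members were called higher and none lower. Of the 29 members tested, 17 passed an adjusted p of 0.05 with higher levels in the Vehicle group and 0 with lower ones, while among all genes tested 22.7% were called higher and 17.3% lower. DESeq2, which also fitted the scarce members, called 21 higher and 0 lower, where 20% of genes were called higher and 15.7% lower. With a log2 fold change above 0.58 in size and an unadjusted p below 0.01, the thresholds of the study's methods, 20 members were higher and 0 lower in the DESeq2 fit (10% and 4.52% of genes) and 16 and 0 in the edgeR fit (15.3% and 6.39%). The median log2 fold change of the 29 members was 1.05, against a median of 3.54e-05 over all genes tested. Called higher were 4 of the 8 ligands, 3 of the 6 receptors with a death domain, 8 of the 12 receptors without one and 2 of the 3 decoys. The 4 ligands include Tnfsf12 and its read-through Tnfsfm13, which are not separate observations. The values of the Vehicle and Sham mice did not overlap for 16 of the 17 called members, the exception being Cd40. Cd40 and Eda2r passed the count filter through the Vehicle mice, where they were highest. Of all genes tested, 20.7% were higher in every Vehicle than in every Sham mouse. In bulk tissue, more cells of a type and more RNA per cell cannot be told apart.

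**Figure D1:**
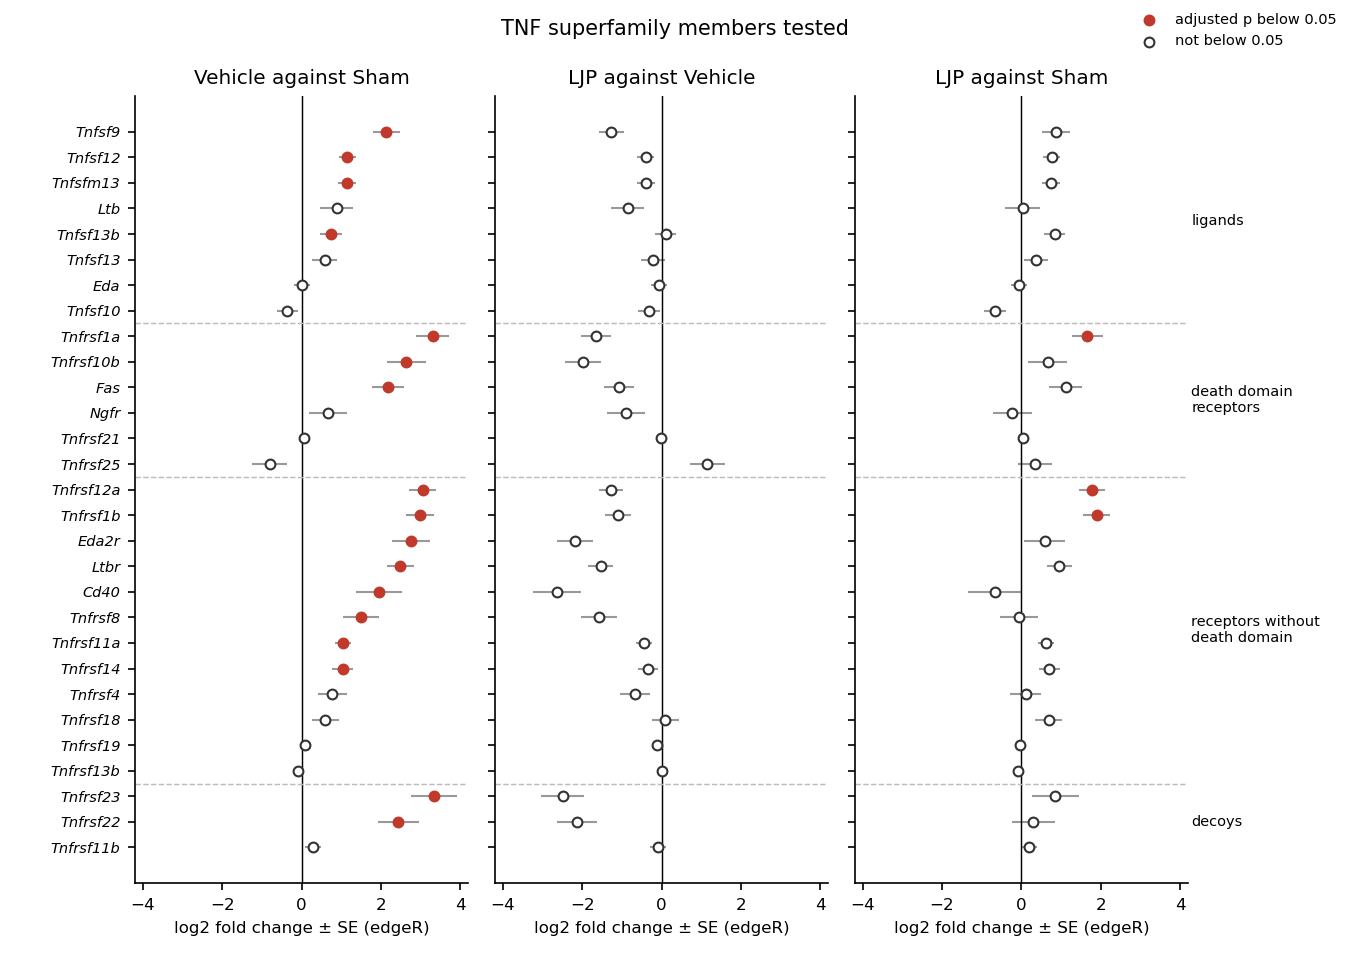
Log2 fold changes with their standard errors (edgeR, x axes) of the 29 tested members, grouped by role and ordered by Vehicle against Sham, in the 3 comparisons. Filled points passed an adjusted p of 0.05: 17 members in Vehicle against Sham, 0 in LJP against Vehicle and 3 in LJP against Sham.

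Among the ligands, Tnfsf9 and Tnfsf12 had the smallest p-values. Tnfsf9, the ligand of the costimulatory receptor 4-1BB, was at 0.403, 0.762, 0.383 and 0.673 CPM in the Sham and at 3.49, 3.13, 1.56 and 1.61 CPM in the Vehicle mice, without overlap (log2 fold change 2.13, SE 0.34, edgeR adjusted p = 0.000825). Tnfsf12, or TWEAK (Entrez Gene 21944, chr11:69686240-69696098 of GRCm38, as are all positions here), the ligand of Tnfrsf12a, was at 10.5, 9.36, 9.91 and 10.6 CPM in the Sham and at 17.5, 33.4, 17.7 and 21.3 CPM in the Vehicle mice (log2 fold change 1.16, SE 0.22, edgeR adjusted p = 0.00220). The ligand thus differed by 2.23-fold where its receptor differed by 8.30-fold. Tnfsfm13, a read-through of Tnfsf12 into the neighbouring Tnfsf13, rose as well (log2 fold change 1.14, SE 0.23, edgeR adjusted p = 0.00262). It was at 8.81, 8.65, 10.3 and 9.68 CPM in the Sham and at 15.0, 30.9, 15.6 and 20.8 CPM in the Vehicle mice. Its counts were 83.6 to 104% of those of Tnfsf12 in every mouse, and 29.4% of its 50-base stretches occur in transcripts of Tnfsf12 and 40.3% in those of Tnfsf13, so its values and those of both neighbours are not separate observations. Tnfsf13b, or BAFF, a survival factor of B cells, was at 0.922, 1.09, 1.26 and 0.880 CPM in the Sham and at 1.45, 2.23, 1.51 and 1.72 CPM in the Vehicle mice (log2 fold change 0.74, SE 0.27, edgeR adjusted p = 0.0466). Its groups did not overlap, but its adjusted p lay just under the threshold and was above it under 12 of 18 alternatives. Not passing were Ltb with a log2 fold change of 0.88, Tnfsf13, or APRIL, with 0.58, Eda with 0.01 and Tnfsf10, or TRAIL, with -0.36 (edgeR adjusted p = 0.107, 0.149, 0.961 and 0.308). TRAIL itself was therefore not called while its receptor Tnfrsf10b and 2 decoys were.

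Tnf, the ligand that gave the family its name, was too scarce for the fit. It had 0, 1, 4 and 0 counts in the Sham mice and 32, 15, 21 and 9 in the Vehicle mice, which is 0.0684 and 0.927 CPM on average. Every Vehicle mouse was above every Sham mouse, and the pooled counts were 13.7-fold higher (95% exact interval 5.61 to 43.3, counting error only). Without Sham mouse 3, which held 4 of the 5 Sham counts, the ratio was 51.3. For the 13 members under the filter with 10 or more counts, an exact permutation test on log2(CPM + 0.5), two-sided and unadjusted, can reach p = 0.0286 at the least with 4 mice against 4, and does so when groups do not overlap. Besides Tnf, this held for 3 others, so that 4 of the 13 did not overlap, against 6.77% of all 6362 genes under the filter with as many counts. Tnfsf14, or LIGHT, a ligand of Ltbr and Tnfrsf14, had no count in any Sham mouse and 60, 37, 1 and 4 counts in the Vehicle mice. With the Sham group set to 3 counts over the group it was 30.2-fold higher (exact permutation p = 0.0286), and 17.0-fold without Vehicle mouse 1. Folds on this floor make no allowance for counting error in the other group. Tnfsf8, or CD30 ligand, had no count in any Sham mouse either and 24, 41, 9 and 6 counts in the Vehicle mice, 23.7-fold higher on the same floor (exact permutation p = 0.0286). Tnfrsf26, the third receptor of the chromosome 7 cluster, had 0, 0, 1 and 1 counts in the Sham and 69, 57, 3 and 4 in the Vehicle mice, 59.0-fold higher (95% exact interval 16.0 to 493, exact permutation p = 0.0286). That ratio was 38.8 without Vehicle mouse 1 and 88.7 without Sham mouse 3. For Tnfsf14 and Tnfrsf26 nearly all counts came from Vehicle mice 1 and 2, while for Tnf and Tnfsf8 all 4 mice contributed at least 6 counts. The other 9 (Cd27, Cd70, Edar, Fasl, Lta, Tnfrsf9, Tnfrsf13c, Tnfrsf17 and Tnfsf11) overlapped between the Vehicle and Sham mice.

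**Figure D2:**
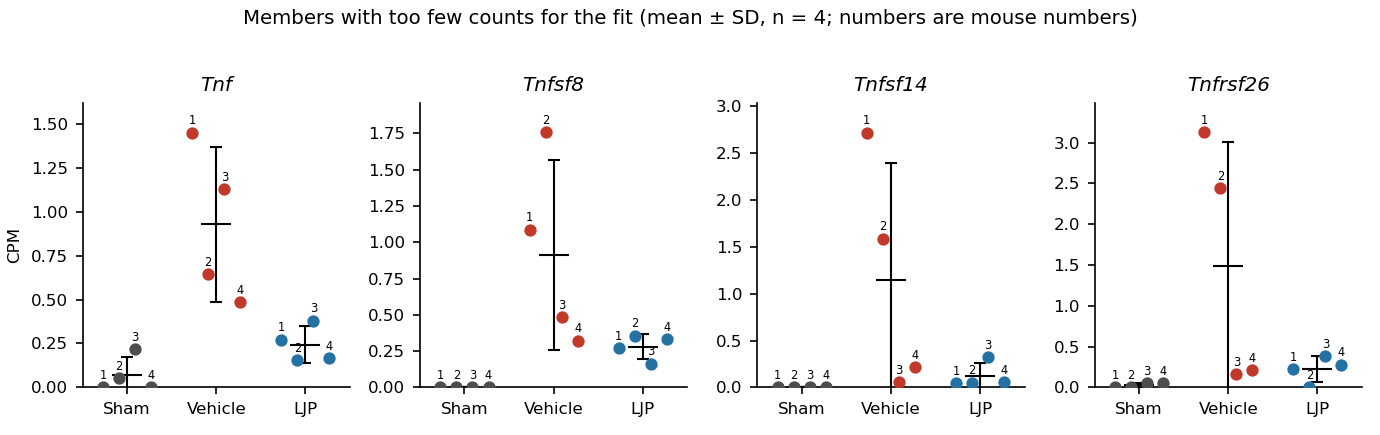
CPM (y axes, from 0) of Tnf, Tnfsf8, Tnfsf14 and Tnfrsf26 in each mouse, with mouse numbers above the points and bars for mean ± SD (n = 4 per group, cut at 0). The Sham mice lie at or near 0, and Tnfsf14 and Tnfrsf26 are above 1 CPM in Vehicle mice 1 and 2 alone.

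Both receptors of TNF itself rose. Tnfrsf1a (TNFR1, Entrez Gene 21937, chr6:125349723-125362483), the receptor through which soluble TNF signals to both NF-kappa B and cell death, was at 9.68, 10.8, 9.42 and 11.5 CPM in the 4 Sham mice and at 115, 189, 49.1 and 54.7 CPM in the 4 Vehicle mice, in the order of their numbers. Its mean level was 9.87-fold higher in the Vehicle group (log2 fold change 3.30, SE 0.41, edgeR adjusted p = 0.000200). The lowest Vehicle mouse was thus over 4 times the highest Sham mouse, and mice 1 and 2 were the highest. Tnfrsf1b (TNFR2, Entrez Gene 21938, chr4:145212368-145246870), which has no death domain and is bound best by membrane TNF, was at 4.67, 5.61, 4.49 and 3.68 CPM in the Sham and at 44.4, 55.4, 21.3 and 24.9 CPM in the Vehicle mice. It rose 7.93-fold (log2 fold change 2.99, SE 0.35, edgeR adjusted p = 0.000151), with the same 2 Vehicle mice highest and no overlap.

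Among the other receptors with a death domain, Fas and the TRAIL receptor rose and the remaining 3 did not pass. Fas (Entrez Gene 14102, chr19:34290647-34327775), which starts apoptosis when its ligand binds, was at 1.09, 0.816, 0.931 and 0.828 CPM in the Sham mice. The 4 Vehicle mice were at 4.80, 7.25, 2.26 and 2.31 CPM, each above the highest Sham mouse, with mice 1 and 2 highest (log2 fold change 2.18, SE 0.41, edgeR adjusted p = 0.00187). Tnfrsf10b, the TRAIL receptor DR5, was at 0.807, 1.20, 0.547 and 0.621 CPM in the Sham and at 4.17, 10.3, 3.01 and 2.37 CPM in the Vehicle mice. Again no mouse overlapped, and Vehicle mouse 2 was far above the others (log2 fold change 2.64, SE 0.48, edgeR adjusted p = 0.00162, and a log2 fold change of 1.99 without that mouse). Tnfrsf21, or DR6, a receptor that is abundant in neurons, averaged 109 ± 3.00 CPM in the Sham and 114 ± 9.15 CPM in the Vehicle mice (SD, n = 4 each), a difference within the spread between mice (log2 fold change 0.06, SE 0.07, edgeR adjusted p = 0.467). Ngfr, the p75 neurotrophin receptor, had a log2 fold change of 0.66 and Tnfrsf25, or DR3, the receptor of TL1A, one of -0.81, and neither passed (edgeR adjusted p = 0.284 and 0.157).

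Among the receptors without a death domain, Tnfrsf12a, Ltbr and Eda2r were called with the largest differences beside Tnfrsf1b. Tnfrsf12a (Fn14, Entrez Gene 27279, chr17:23675445-23677449), the receptor of TWEAK and a gene known to respond to injury and growth factors, was nearly identical in the 4 Sham mice, at 3.69, 3.92, 3.94 and 3.93 CPM. The Vehicle mice were at 44.8, 46.3, 20.3 and 17.0 CPM, so that the lowest of them was over 4 times every Sham mouse (8.30-fold in the fit, log2 fold change 3.05, SE 0.34, edgeR adjusted p = 0.000122). This was the smallest p-value of the family. Ltbr (Entrez Gene 17000, chr6:125306571-125313885), the receptor of the lymphotoxin alpha and beta complex and of LIGHT, which drives the alternative NF-kappa B pathway, was at 6.91, 8.55, 7.61 and 9.37 CPM in the Sham and at 54.5, 75.7, 24.1 and 27.9 CPM in the Vehicle mice (log2 fold change 2.49, SE 0.33, edgeR adjusted p = 0.000287). Vehicle mice 1 and 2 were again the high pair, and the lowest Vehicle mouse was well above the highest Sham mouse. Eda2r (XEDAR), a receptor of the A2 form of ectodysplasin that is also known as a p53 target, was low in all groups, at 0.230, 0.272, 0.493 and 0.362 CPM in the Sham and at 1.99, 3.86, 2.20 and 1.24 CPM in the Vehicle mice (log2 fold change 2.76, SE 0.48, edgeR adjusted p = 0.00130).

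The remaining 4 receptors of this class that were called differed by less or less evenly. Cd40, the receptor that antigen-presenting cells and endothelium use to receive help from T cells, was at 0.691, 0.327, 0.438 and 0.362 CPM in the Sham and at 1.68, 4.03, 0.538 and 0.754 CPM in the Vehicle mice. Vehicle mouse 3 lay within the Sham range and mouse 2 more than 5 times above the highest Sham mouse (log2 fold change 1.96, SE 0.57, edgeR adjusted p = 0.0174), and the call was lost without Vehicle mouse 2 (log2 fold change 1.13, adjusted p = 0.0665) and without Sham mouse 2. Tnfrsf8, or CD30, a receptor of activated lymphocytes, was at 1.50, 0.708, 1.09 and 0.932 CPM in the Sham and at 2.27, 5.92, 1.77 and 1.99 CPM in the Vehicle mice (log2 fold change 1.50, SE 0.45, edgeR adjusted p = 0.0198). The groups did not overlap, yet the call was lost without Vehicle mouse 2 (adjusted p = 0.0701), without Sham mouse 2 and without Sham mouse 4. Tnfrsf11a, or RANK, the receptor of RANKL on osteoclast precursors and other myeloid cells, was at 7.26, 6.26, 9.74 and 8.85 CPM in the Sham and at 14.3, 21.6, 15.2 and 15.3 CPM in the Vehicle mice (log2 fold change 1.05, SE 0.20, edgeR adjusted p = 0.00213). Tnfrsf14, or HVEM, which binds LIGHT and the inhibitory receptor BTLA, was at 2.36, 1.69, 2.14 and 2.85 CPM in the Sham and at 3.04, 6.39, 4.03 and 5.11 CPM in the Vehicle mice (log2 fold change 1.04, SE 0.26, edgeR adjusted p = 0.00855). Both rose, with every Vehicle mouse above every Sham mouse, and for Tnfrsf14 by a narrow margin between Vehicle mouse 1 and Sham mouse 4. Not passing were Tnfrsf4, or OX40, with a log2 fold change of 0.78, Tnfrsf18, or GITR, with 0.59, Tnfrsf19, or TROY, with 0.08, and Tnfrsf13b, or TACI, with -0.09.

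The decoys of the TRAIL system rose together with the TRAIL receptor. Tnfrsf23 and Tnfrsf22, neighbours on chromosome 7 that bind TRAIL in the mouse without a death domain, both lay between 0.712 and 1.09 CPM in every Sham mouse. In the Vehicle mice Tnfrsf23 was at 10.2, 17.9, 2.31 and 3.28 CPM (log2 fold change 3.34, SE 0.58, edgeR adjusted p = 0.00126). Tnfrsf22 was at 5.44, 9.69, 1.61 and 2.10 CPM (log2 fold change 2.43, SE 0.52, edgeR adjusted p = 0.00362), so that in both genes mice 1 and 2 were the high pair, while mice 3 and 4 were lower but still above every Sham mouse. Without Vehicle mouse 2 the log2 fold changes were 2.66 for Tnfrsf23 and 1.80 for Tnfrsf22, and both stayed called. These 2 genes share part of their sequence: of the distinct 50-base stretches in their annotated transcripts (GENCODE M21), 17.3% of those of Tnfrsf22 occur in Tnfrsf23, and 18.01% the other way, so their separate values are uncertain to that extent. The third decoy, Tnfrsf11b, or osteoprotegerin, which binds RANKL, differed by 0.28 on the log2 scale and was not called (edgeR adjusted p = 0.284).

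**Figure D3:**
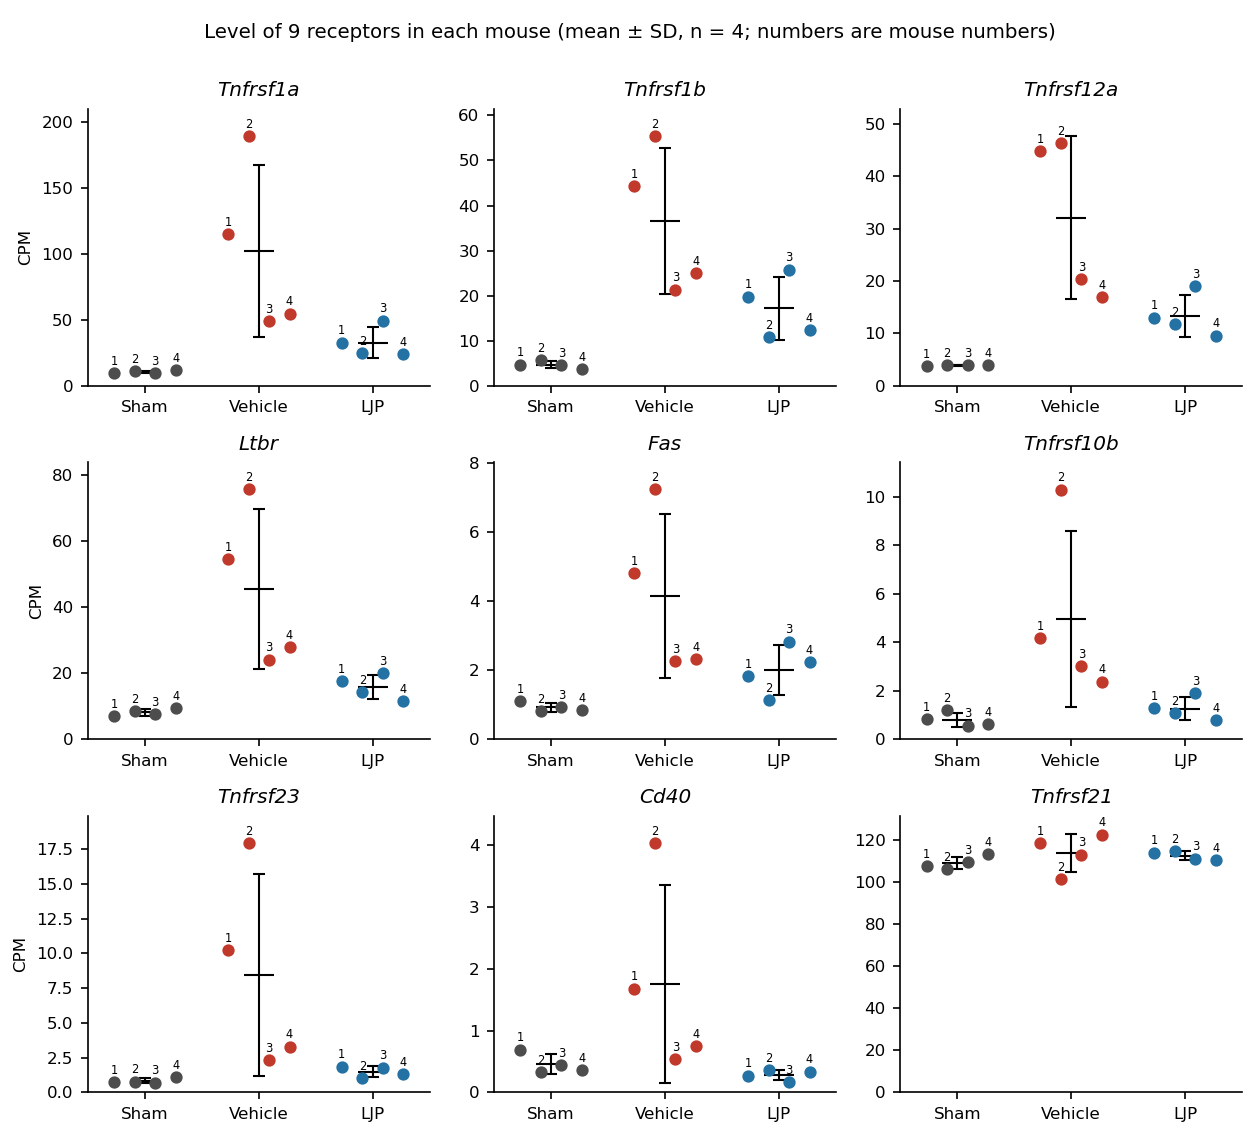
CPM (y axes, from 0) of 9 receptors in each of the 12 mice, with the mouse number above each point and bars for mean ± SD (n = 4 per group, cut at 0). Vehicle mice 1 and 2 are the highest for Tnfrsf1a, Tnfrsf1b, Tnfrsf12a, Ltbr, Fas, Tnfrsf10b, Tnfrsf23 and Cd40, while Tnfrsf21 lies between 101 and 123 CPM in every mouse.

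Levels of different genes were compared per length, as CPM per kilobase of the gene length given in the table. In the Sham mice Tnfrsf21 had the highest level of the family (30.1 ± 0.828 CPM per kb, SD, n = 4), followed by Tnfrsf19, a receptor of astrocytes and progenitors, at 12.9 ± 0.710, Tnfrsf13b at 10.4 ± 0.447 and Tnfsf12 at 5.96 ± 0.339. Tnfrsf1a came next at 4.80 ± 0.449 CPM per kb. In the Vehicle mice the order differed at the top. Tnfrsf1a had the highest mean at 47.3 ± 30.3 CPM per kb, followed by Tnfrsf12a at 33.3 ± 16.2, Tnfrsf21 at 31.4 ± 2.52 and Ltbr at 21.6 ± 11.5. Within each of the 4 Vehicle mice Tnfrsf1a was above Tnfrsf12a (1.08 to 1.83-fold) and Tnfrsf12a above Ltbr (1.33 to 1.84-fold). The place of Tnfrsf21 differed between the mice, since Tnfrsf1a and Tnfrsf12a were above it in mice 1 and 2 and below it in mice 3 and 4. In the LJP mice Tnfrsf21 was first again (31.0 ± 0.568), with Tnfrsf1a at 15.2 ± 5.46 and Tnfrsf12a at 13.8 ± 4.19. Summed over the 27 receptors and decoys, the level was 76.8 ± 0.706 CPM per kb in the Sham, 186 ± 66.3 in the Vehicle and 107 ± 14.1 in the LJP group (SD, n = 4). Summed over the 18 ligands without the read-through it was 10.6 ± 0.263, 22.2 ± 6.03 and 16.1 ± 3.47 CPM per kb. The level of Tnfrsf13b has to be read with its neighbour in mind. Its annotated span overlaps that of Usp22, an abundant deubiquitinase gene on the opposite strand, by 1390 bases, and the library kit named by the labels does not mark the strand. Its counts were 24.4 to 32.0% of those of Usp22 in every mouse, while the markers of B cells, where TACI is known to be expressed, summed to 0.599 to 1.33 CPM in the Sham mice. How much of its count is its own was not tested. For the same reason, reads cannot be told apart where Tnfsf9 overlaps Gm11110 by 656 bases (122 counts over the 12 mice, against 330 of Tnfsf9), Tnfrsf18 overlaps Gm16008 by 2573 bases (1496 against 626), and Tnfsf13 and Tnfsf12 overlap Tnfsf13os by 2978 and 4902 bases (77 against 790 and 3963). The span of Cd27 lies wholly within an opposite-strand gene. Tnfrsf12a overlaps Hcfc1r1 by 80 bases, and that gene was nearly level at 33.1, 34.3 and 33.7 CPM in the Sham, Vehicle and LJP groups.

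**Figure D4:**
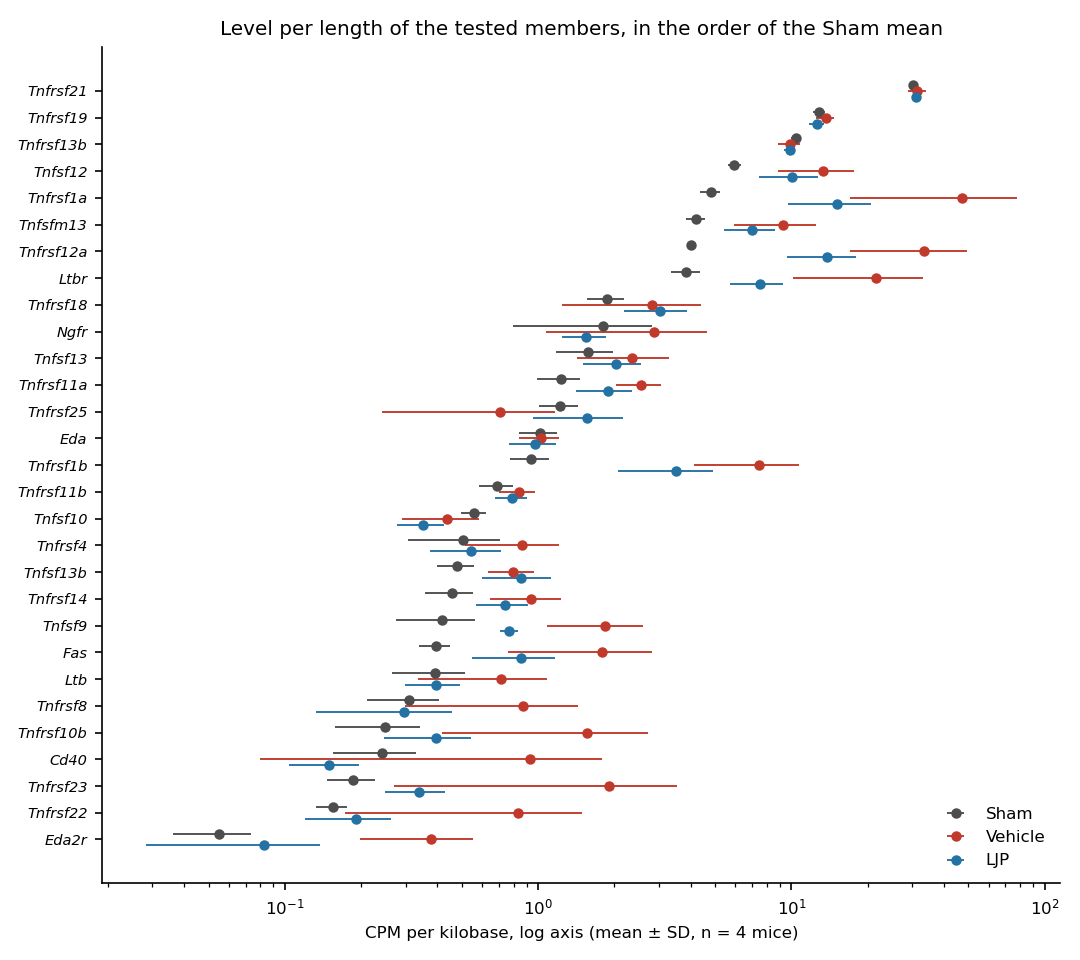
Level per kilobase (x axis, log scale, mean ± SD over 4 mice) of the 29 tested members in the Sham, Vehicle and LJP groups, ordered by the Sham mean. Tnfrsf21, Tnfrsf19 and Tnfrsf13b lead in the Sham group and stay in place, while the Vehicle points of Tnfrsf1a, Tnfrsf12a, Ltbr and Tnfrsf1b lie far to the right of the Sham points.

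Many of the genes lie side by side in the genome. With a gap of at most 100 kb, 23 of the 46 members fall into 9 clusters. Of the 13 tested members in them 9 were called higher, and of the 16 tested members outside them 8, against 22.7% of all genes tested. The 9 include Tnfsf12 and its read-through Tnfsfm13, which are not separate observations. Tnfrsf1b and Tnfrsf8 (chr4:145212368-145315164) both rose. In the cluster of Cd27, Ltbr and Tnfrsf1a (chr6:125232620-125362483), Ltbr and Tnfrsf1a rose and Cd27 was too scarce to test. In the cluster of Tnfrsf26, Tnfrsf22 and Tnfrsf23 (chr7:143607685-143686436) all 3 were higher in every Vehicle than in every Sham mouse, the first of them on a few counts. The Ltb, Tnf and Lta cluster (chr17:35194507-35205578) had few counts, at 132, 101 and 37 over the 12 mice. Ltb was tested and did not pass, Tnf was higher in every Vehicle than in every Sham mouse and Lta overlapped.

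The 250 bases before the members' RefSeq starts were searched on both strands for 2 motifs, the NF-kappa B motif, either as GGGA, any 2 bases and TTCC or as GGG, any 2 bases and TTTCC, and the AP-1 motif TGANTCA. The 2 NF-kappa B forms can match the same bases and were counted together. The starts are those of RefSeq, and RefSeq promoter sequences of GRCm38.p6 were matched for 36 of the 46 members by symbol, giving 40 promoters, while Cd40, Cd40lg, Cd70, Tnfrsf10b, Tnfrsf11b, Tnfrsf22, Tnfrsf26, Tnfsf12, Tnfsf4 and Tnfsf9 were not matched. Of these 40, 23 begin at the gene start given in the count table and 17 further into the gene, so that part or all of their window lies within the span of the table. The NF-kappa B motif was present in 3 of the 40 promoters (7.5%), those of Ltb, Tnfrsf9 and Tnfrsf25, and in 2.26% of the 32851 promoters of all genes. The AP-1 motif was present in 6 of the 40 (15%) and in 6.75% of all promoters. Of the 13 promoters of members that rose, 0 held the NF-kappa B letters and 3 (23.1%), those of Fas, Tnfrsf8 and Tnfsf13b, held the AP-1 letters. The matches of Tnfrsf9 (both motifs), Tnfrsf25 and Tnfsf13b come from windows wholly within the gene. Their RefSeq starts lie 7844, 406 and 404 bases downstream of the start in the table. A match is a description of the letters and not of a bound site. The promoters of 2 called receptors with an AP-1 match, that of Ltb with its NF-kappa B match, and that of Tnfrsf12a, which had the smallest p-value and neither match, are shown 5′ to 3′ on the strand of the gene, up to the base before the RefSeq start, with the motif in capitals (GRCm38.p6, chr19:34290409-34290658, plus strand, for Fas, chr4:145315165-145315414, minus strand, for Tnfrsf8, chr17:35194257-35194506, plus strand, for Ltb and chr17:23677450-23677699, minus strand, for Tnfrsf12a). The motif begins 211 bases before the RefSeq start in Fas, 132 in Tnfrsf8 and 87 in Ltb. The RefSeq start of Fas lies 12 bases downstream of the start in the table, from which the motif is 199 bases away, while in the other 3 both starts are the same. The sequences are as follows.
Fas: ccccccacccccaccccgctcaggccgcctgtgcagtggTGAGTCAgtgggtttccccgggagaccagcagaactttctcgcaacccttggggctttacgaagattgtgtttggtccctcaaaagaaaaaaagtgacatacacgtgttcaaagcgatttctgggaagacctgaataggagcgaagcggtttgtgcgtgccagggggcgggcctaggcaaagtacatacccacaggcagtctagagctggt
Tnfrsf8: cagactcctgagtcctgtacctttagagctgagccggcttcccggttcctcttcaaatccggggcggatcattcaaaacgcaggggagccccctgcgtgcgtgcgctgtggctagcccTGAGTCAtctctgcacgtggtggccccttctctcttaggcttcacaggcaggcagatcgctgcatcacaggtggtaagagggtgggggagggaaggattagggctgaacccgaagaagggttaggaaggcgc
Ltb: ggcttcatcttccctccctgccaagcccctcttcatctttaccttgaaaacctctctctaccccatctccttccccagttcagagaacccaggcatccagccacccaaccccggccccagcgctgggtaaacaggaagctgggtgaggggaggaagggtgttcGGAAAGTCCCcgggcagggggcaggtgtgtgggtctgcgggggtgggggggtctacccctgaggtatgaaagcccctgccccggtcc
Tnfrsf12a: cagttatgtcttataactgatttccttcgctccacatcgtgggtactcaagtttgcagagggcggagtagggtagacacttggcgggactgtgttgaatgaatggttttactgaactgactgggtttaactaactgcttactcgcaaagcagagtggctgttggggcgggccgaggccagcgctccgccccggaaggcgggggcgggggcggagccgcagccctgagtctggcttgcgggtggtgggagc

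The genes that act directly next to the receptors were read from a list of 42 adaptors, TRAF proteins, ubiquitin editors, kinases, caspases, NF-kappa B subunits and sheddases, of which 41 were tested. In Vehicle against Sham, 25 of the 41 were called higher and 3 lower, against 22.7% and 17.3% of all genes tested, and their median log2 fold change was 0.52. The smallest p-values belonged to Casp8, the initiator caspase of death receptors (2.08 ± 0.225 CPM in the Sham and 13.4 ± 7.92 CPM in the Vehicle group, SD, n = 4, log2 fold change 2.69, SE 0.37, edgeR adjusted p = 0.000378), to Ripk3, the kinase of necroptosis (0.188 ± 0.126 CPM in the Sham and 4.65 ± 3.16 CPM in the Vehicle group, SD, n = 4, log2 fold change 4.57, SE 0.67, edgeR adjusted p = 0.000492), and to Cyld, a deubiquitinase that limits NF-kappa B signalling and was among the lower genes (215 ± 18.6 and 104 ± 25.4 CPM, SD, n = 4, log2 fold change -1.05, SE 0.16, edgeR adjusted p = 0.000548). The other lower genes were Traip and Traf3, with log2 fold changes of -1.02 and -0.30. Fadd, the adaptor that links Fas and DR5 to caspase-8, and Ripk1, the kinase recruited by TNFR1, were also called, at log2 fold changes of 1.11 and 1.68.

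With LJP, most tested members had lower means than in the Vehicle group, but none passed the test. In LJP against Vehicle, 25 of the 29 tested members had a negative log2 fold change, the median was -0.66 against -0.00174 over all genes tested, and 0 members had an edgeR adjusted p below 0.05, where 0.0228% of all genes were called lower (4 of 17558) and 0% higher. At an unadjusted p below 0.05, 13 members were lower and 1 higher, against 17.4% and 12.3% of all genes tested. DESeq2 called 12 members lower and 0 higher, with 9.48% of genes called lower and 3.88% higher. The study's thresholds held in the DESeq2 fit for 15 members lower and 1 higher (Tnfrsf25), against 4.62% and 1.04% of genes. In the edgeR fit they held for 11 members, all lower, against 5.89% of genes lower. The count depended on single mice. Without Vehicle mouse 3, edgeR called 12 members lower (13.1% of genes lower), and without Vehicle mouse 4 it called 13 lower and 1 higher (8.38% of genes lower and 3.35% higher), these 2 being the Vehicle mice with the lower medians over the members that rose. Leaving out any of the other 10 mice left the count at 0.

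The 5 members with the smallest p-values were Ltbr, Eda2r, Tnfrsf23, Tnfrsf1a and Cd40, each with an edgeR adjusted p of 0.0678. Of these, Eda2r and Cd40 could be tested only through their counts in the Vehicle mice, the group in which they were highest. Eda2r had 44, 90, 41 and 23 counts there and Cd40 had 37, 94, 10 and 14. Ltbr was at 17.6, 14.1, 19.9 and 11.4 CPM in the LJP mice, each below the lowest Vehicle mouse at 24.1 CPM, with a log2 fold change of -1.53 (SE 0.32). Eda2r was at 0.544, 0.306, 0.978 and 0.223 CPM against 1.99, 3.86, 2.20 and 1.24 CPM in the Vehicle mice, again without overlap (log2 fold change -2.17, SE 0.45). Tnfrsf23 was at 1.86, 1.02, 1.79 and 1.34 CPM, below all Vehicle mice but close to Vehicle mouse 3 at 2.31 CPM (log2 fold change -2.49, SE 0.54, and -1.81 without Vehicle mouse 2). Tnfrsf1a was at 32.7, 24.7, 49.3 and 24.1 CPM (log2 fold change -1.64, SE 0.38). Here the groups overlapped, since LJP mouse 3 at 49.3 CPM was level with Vehicle mouse 3 at 49.1 CPM. Cd40 was at 0.272, 0.357, 0.163 and 0.334 CPM, so that the LJP mice lay not only below all Vehicle mice but also within or below the Sham range (log2 fold change -2.63, SE 0.60, and -1.81 without Vehicle mouse 2).

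In all, 7 tested members were lower in every LJP than in every Vehicle mouse (Ltbr, Eda2r, Tnfrsf23, Cd40, Tnfrsf10b, Tnfrsf22 and Tnfsf9), where 5.9% of all genes tested were. In the other direction, 0 members were higher in every LJP mouse, where 1016 of the 17558 genes tested were. Tnfrsf12a and Tnfrsf1b overlapped, with LJP mouse 3 within the Vehicle range at 19.0 and 25.8 CPM. The member with an unadjusted p below 0.05 in the other direction was Tnfrsf25, at 4.22, 4.24, 1.85 and 5.51 CPM in the LJP and 0.861, 0.772, 2.37 and 3.18 CPM in the Vehicle mice (log2 fold change 1.16, SE 0.44, edgeR adjusted p = 0.113). It was lowest in Vehicle mice 1 and 2, and the groups overlapped. Under the filter, Tnf did not overlap, with 6, 3, 7 and 3 counts in the LJP mice, and its pooled counts were 3.83-fold lower than in the Vehicle mice (95% exact interval 2.29 to 6.70, counting error only, exact permutation p = 0.0286). Tnf was not called by edgeR without the filter (adjusted p = 0.0992), and DESeq2 gave no adjusted p for it. It was the single one of 13 members under the filter that did not overlap, against 4.1% of genes under the filter, and the number was 2 without Vehicle mouse 3, without Vehicle mouse 4 or without LJP mouse 4.

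In the signalling list, 0 of 41 genes passed in LJP against Vehicle, with 22 lower and 2 higher at an unadjusted p below 0.05, against 17.4% and 12.3% of all genes tested, and a median log2 fold change of -0.35. The smallest p-values were those of Rela and Relb, subunits of NF-kappa B, with log2 fold changes of -0.92 (SE 0.23) and -0.89 (SE 0.22), and of Tnfaip3, or A20, which ends TNF signalling, with -0.70 (SE 0.18). All 3 had an edgeR adjusted p of 0.0678, and in all 3 every LJP mouse was below every Vehicle mouse. As for the family itself, calls appeared without Vehicle mouse 3 (19 lower, against 13.1% of genes) and without Vehicle mouse 4 (13 lower, against 8.38%). DESeq2 called 15 lower and 1 higher, against 9.48% and 3.88% of genes.

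Compared with the Sham group, the LJP mice still had higher TNF and TWEAK receptors. In LJP against Sham, 3 of the 29 tested members were called higher and 0 lower, against 3.85% and 0.9% of all genes tested, and the median log2 fold change was 0.58. DESeq2 called 7 higher, with 5.67% of genes called higher. By the study's thresholds 10 members were higher and 0 lower in the DESeq2 fit (3.62% and 0.702% of genes), and 7 and 0 in the edgeR fit (5.1% and 0.797%). Without Vehicle mouse 2 edgeR called 7 higher, with 7.77% of genes called higher and 5.5% lower. With the 8 mice of both groups fitted alone it called 11 higher and 1 lower, with 12.1% and 11.8% of genes called. More genes were thus called overall with DESeq2, without Vehicle mouse 2 and with the 2 groups alone too. Tnfrsf1b was at 19.8, 10.8, 25.8 and 12.2 CPM in the LJP mice, each above the highest Sham mouse at 5.61 CPM (log2 fold change 1.90, SE 0.35, edgeR adjusted p = 0.00748). Tnfrsf12a was at 13.02, 11.7, 19.0 and 9.58 CPM, again all above the Sham mice (log2 fold change 1.78, SE 0.33, edgeR adjusted p = 0.00820). Tnfrsf1a did not overlap with the Sham mice either (log2 fold change 1.66, SE 0.39, edgeR adjusted p = 0.0316), although its call was lost under 7 of 18 alternatives, among them without any one of the 4 Sham mice, without LJP mouse 1 and without LJP mouse 3 (adjusted p = 0.110). Next in p-value came the ligand Tnfsf12, at 18.5, 12.3, 22.7 and 14.9 CPM in the LJP mice (log2 fold change 0.76, SE 0.22, edgeR adjusted p = 0.0771), and its read-through Tnfsfm13, at 17.3, 11.2, 19.3 and 14.8 CPM (log2 fold change 0.74, edgeR adjusted p = 0.0905). Neither passed. Without overlap, 8 tested members were higher in every LJP than in every Sham mouse, and 1 was lower, against 12.8% and 12% of all genes tested. The lower one was Tnfsf10, at 2.27, 1.43, 1.58 and 1.67 CPM against 2.77, 2.50, 2.57 and 3.21 CPM (log2 fold change -0.67, SE 0.27, edgeR adjusted p = 0.206).

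Under the filter, 4 of 13 members did not overlap between the LJP and Sham mice, against 3.87% of genes, each at the smallest exact permutation p of 0.0286, but 1 of the 4, Tnfsf8, was called when these genes were fitted too. Tnfsf8 had 6, 7, 3 and 6 counts in the LJP mice and 0 in every Sham mouse, 6.89-fold higher with the Sham group set to the floor of 3 counts (adjusted p = 0.0252 with edgeR without the filter and 0.00257 with DESeq2). Tnfsf14 had 1, 1, 6 and 1, 2.82-fold higher on the same floor, but 6 of the 9 counts came from LJP mouse 3, and the 3 that remained without it do not exceed the floor (adjusted p = 0.453 with edgeR without the filter and 0.164 with DESeq2). Cd27, the receptor of CD70 on T cells, had 4, 3, 6 and 3 counts in the LJP and 1, 0, 0 and 2 in the Sham mice (5.01-fold, 95% exact interval 1.43 to 26.8, and 11.1-fold without Sham mouse 4, adjusted p = 0.337 with edgeR without the filter and not given by DESeq2). The whole span of Cd27 (4517 bases) lies within E130112N10Rik on the opposite strand, which had 142 counts over the 12 mice against 42 for Cd27, so the reads of these genes cannot be told apart. Edar, the receptor of the A1 form of ectodysplasin, was the lower one, with 8, 2, 6 and 6 against 11, 9, 10 and 11 counts (1.98-fold lower, 95% exact interval 1.15 to 3.49, adjusted p = 0.397 with edgeR without the filter and 0.278 with DESeq2). In the signalling list, 1 of 41 genes, Casp8, was called higher and 1, Cyld, lower, against 3.85% and 0.9% of all genes tested (log2 fold change 1.69, SE 0.37, edgeR adjusted p = 0.0209 for Casp8, and -0.60, SE 0.15, adjusted p = 0.0453 for Cyld), and Map3k14, or NIK, the kinase of the alternative NF-kappa B pathway, was next with 0.66 (edgeR adjusted p = 0.0528). The call of Cyld was lost under 12 of 18 alternatives and that of Casp8 under 7. With any one of the 4 Sham mice, LJP mouse 1 or LJP mouse 3 left out, 0 genes of the signalling list were called, and 1 was without Vehicle mouse 4 or LJP mouse 4. With Vehicle mouse 2 left out, 8 were called.

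Among the Vehicle mice, mouse 2 had the highest level for 16 of the 17 members that rose and mouse 1 for the other one, where mouse 2 was highest for 77.0% of all 3982 genes called higher. The lowest was mouse 3 for 9 of the 17, mouse 1 for 5 (Tnfrsf11a, Tnfrsf14, Tnfsf12, Tnfsfm13 and Tnfsf13b) and mouse 4 for 3. Among all 3982 genes called higher, mouse 3 was lowest for 56.9%, mouse 1 for 16.5% and mouse 4 for 24.3%. Mouse 1 was thus among the high pair for some members and the lowest for others. The median log2 change of the 17 from the Sham mean, on log2(CPM + 0.5), was 1.85, 2.38, 0.96 and 1.04 in Vehicle mice 1 to 4, 0.71, 0.27, 0.89 and 0.47 in LJP mice 1 to 4, and between -0.08 and 0.04 in the Sham mice. Vehicle mice 3 and 4 were thus closer to LJP mice 1 and 3 than to Vehicle mice 1 and 2. Without Vehicle mouse 2, edgeR called 15 members higher than in the Sham group, with 18.7% of genes called higher. Without Vehicle mouse 4 it called 17 higher and 1 lower, with 23.9% and 18.7% of genes called.

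The sums of marker genes moved with these medians in part. The 7 endothelial markers summed to 223 to 240 CPM in the Sham, 312 to 1443 CPM in the Vehicle and 221 to 280 CPM in the LJP mice, and 5 of the 7 were called higher in Vehicle against Sham. The 7 pericyte and fibroblast markers summed to 163 to 175, 220 to 1158 and 151 to 213 CPM (6 called higher), and the 8 monocyte and macrophage markers to 16.2 to 24.7, 69.7 to 324 and 28.0 to 106 CPM (6 called higher). The 8 neutrophil markers summed to 5.13 to 6.68, 18.1 to 207 and 10.1 to 22.2 CPM. Most of this sum in the Sham and LJP mice was Csf3r, a cytokine receptor of granulocytes and other myeloid cells and the single one of the 8 that passed the count filter, which asks for counts in several mice. The other 7 together lay at 0.164 to 0.346 CPM in the Sham, 0.645 to 159 CPM in the Vehicle and 0.306 to 0.815 CPM in the LJP mice. The 8 microglial markers (6 called higher) summed to 304 to 309, 419 to 839 and 513 to 862 CPM, so that the LJP and Vehicle mice covered much the same range, with mouse 1 the lowest of the Vehicle group. Neuronal markers summed to 3764 to 6064 CPM in the Vehicle and 5837 to 6916 CPM in the LJP mice, with 3 of 7 called lower in Vehicle against Sham. The 9 T and NK cell markers summed to 19.2 to 25.9, 3.95 to 5.86 and 7.01 to 12.9 CPM, mostly from Cd4, the one gene tested and called lower. Cd4 averaged 22.3 CPM in the Sham and 3.83 CPM in the Vehicle mice. The other markers of this list were too scarce to test. Their means reached at most 0.261 CPM in the Sham and 0.294 CPM in the Vehicle mice (both Trac). Each of these means was higher after occlusion, on a few counts, so the lower sum after occlusion was that of Cd4. The 6 B and plasma cell markers stayed under 3 CPM, and the 6 dendritic cell markers summed to 15.3 to 19.9, 17.6 to 21.5 and 18.6 to 22.3 CPM. No marker was at 0 in every mouse. The 7 astrocyte markers summed to 3549 to 5523 CPM in the Vehicle and 4247 to 5547 CPM in the LJP mice, with 3 called higher and 1 lower in Vehicle against Sham. Within that sum Gfap, which reactive astrocytes are known to raise, was at 141 ± 22.7, 2063 ± 603 and 1567 ± 523 CPM in the Sham, Vehicle and LJP groups (SD, n = 4). The lower one was the glutamate transporter Slc1a2, at 2980 ± 194, 1763 ± 649 and 2345 ± 133 CPM. The sums of the oligodendrocyte lineage lay within 3428 to 4283 CPM in the LJP mice and up to 4612 CPM in the Vehicle mice. Choroid plexus markers ranged from 31.8 to 903 CPM within the Sham group alone and lay at 19.6 to 26.7 CPM in Vehicle mice 1 and 2 and LJP mice 1, 2 and 4. The part of these cell types in the levels of the family was not tested.

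**Figure D5:**
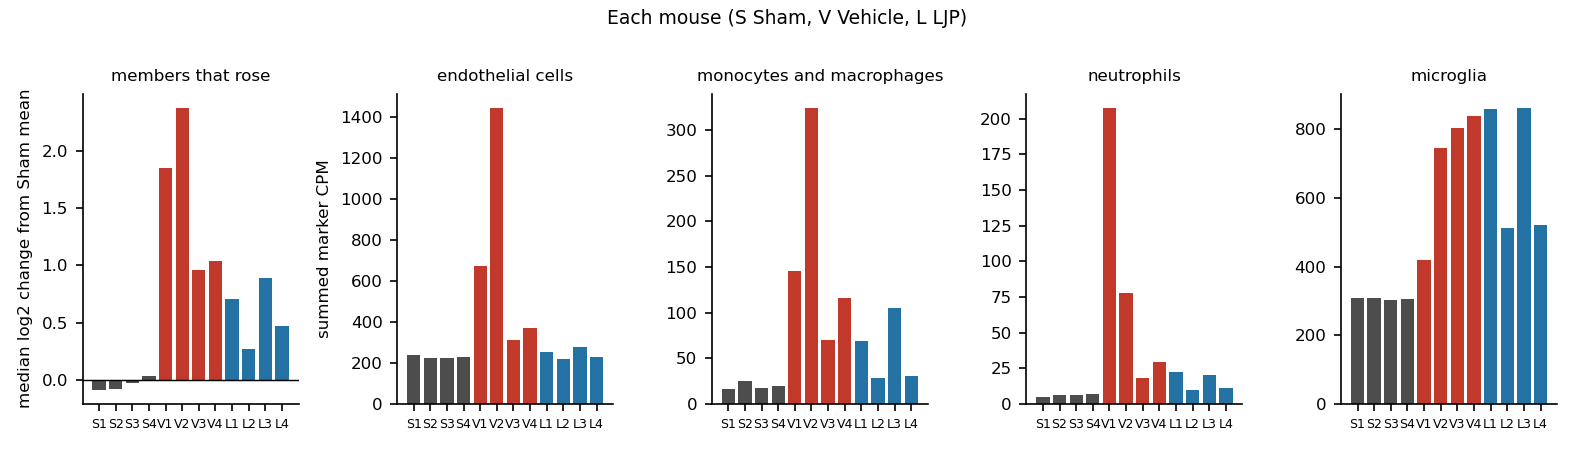
Left, median log2 change from the Sham mean of the 17 members that rose in Vehicle against Sham, for each of the 12 mice (S Sham, V Vehicle, L LJP), followed by the summed CPM of the endothelial, monocyte and macrophage, neutrophil and microglial marker lists (y axes from 0). The endothelial and monocyte sums are highest in Vehicle mouse 2 and the neutrophil sum in Vehicle mouse 1, while the microglial sum is as high in LJP mice 1 and 3 as in Vehicle mice 3 and 4.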

How the data were processed

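RNA of the ischemic hemisphere of 12 mice (4 Sham, 4 Vehicle, 4 LJP) was sequenced as poly(A) paired-end libraries made with a kit that does not mark strand. The authors deposited raw read counts per gene, 1 column for each mouse, and 0 columns were left unmatched to a mouse. Per the labels' processing notes featureCounts and DESeq2 were used, without versions, and the genome builds named are GRCm39 and mm10. The positions in the table are those of GRCm38. The aligner, the strand setting and the handling of reads shared between genes are not given in the sources used here. All mice carry the same batch label. Mice of a group are separate animals by the labels, and the counts of every pair within a group differed by more than sampling noise (chi-square per degree of freedom at least 2.52).

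Counts were fitted with edgeR 4.0.16 (R 4.3.3), with TMM normalization, filterByExpr and the quasi-likelihood test on all 3 groups, and p-values were adjusted over 17558 genes by Benjamini-Hochberg, with calls at an adjusted p below 0.05. CPM use the TMM-normalised library size, and CPM per kb the gene length of the deposited table. Members under the filter with at least 10 counts were compared by an exact 2-sided permutation test on log2(CPM + 0.5), unadjusted, and pooled counts by an exact 95% interval that covers counting error only, with 3 counts as the floor for a group at 0. Scripts were tested on simulated counts. Members, gene lists, marker lists and motifs were chosen with earlier results of these data known, so that counts over them are descriptions. Named with values in every mouse were the members called in a comparison, the 5 members with the smallest p where fewer than 5 were called, and members under the filter whose groups did not overlap. Of the signalling list the 3 genes with the smallest p in each comparison were named, and a few others after their values were seen (Traip, Traf3, Fadd, Ripk1 and, among members, Tnfrsf25 and Tnfsf10). The alternatives were DESeq2 1.42.0, RLE or library-size scaling, no filter, the 2 groups alone, the thresholds of the study on edgeR and on DESeq2 values, a replicate block and each mouse left out. Replicate numbers are shared between groups, but deviations of same-numbered mice correlated at -0.32 to 0.11, so they do not pair the mice. The 3 comparisons share mice and are not independent of each other.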

Additional observations from a re-analysis of the deposited data

Results flagged for a closer look

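For 9 of 103 groups of 4 mice, the gap between the most extreme mouse and its nearest neighbour took up a larger share of the group's whole range than Dixon's 95% critical value, where chance gives about 5.15 such groups. In the Sham group this was Ngfr, highest in mouse 2 (11.3 CPM, gap of 0.914 of the range), Tnfrsf12a, lowest in mouse 1 (0.911, within a range of only 3.69 to 3.94 CPM) and Tnfrsf23, highest in mouse 4 (1.09 CPM, 0.866). In the Vehicle group it was Tnfrsf11a (21.6 CPM, 0.860) and Tnfrsf8 (5.92 CPM, 0.882), both highest in mouse 2, and Tnfsf10, lowest in mouse 1 (1.09 CPM, 0.850). In the LJP group it was Cd27, highest in mouse 3 (6 counts, 0.836), Tnfsf14, highest in mouse 3 (6 counts, 0.963), and Edar, lowest in mouse 2 (2 counts, 0.858). The last 3 rest on a few counts.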

How the results depend on the processing

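In Vehicle against Sham the number of members called lay between 15 and 21 under the alternatives run (DESeq2 21, no filter 20, the replicate block 15, each mouse left out 15 to 18), where 35.7%, 21.2%, 34.8% and 29.5 to 45.9% of the genes tested were called in either direction, and that of the 41 signalling genes at 23 to 28 with each mouse left out. Over 17 named members and 18 alternatives, 288 of 306 values stayed past the threshold, and the 18 that did not belonged to Tnfsf13b (12), Tnfrsf8 (4) and Cd40 (2). In LJP against Vehicle the member count was 0 by edgeR, with RLE or library-size scaling, with the 2 groups alone and with the replicate block, but 12 with DESeq2, 8 without the filter, 11 with the study's thresholds on edgeR values and 0 to 14 with each mouse left out, where 13.4%, 1.96%, 6.97% and 0.0167 to 21.6% of the genes tested were called. The signalling count was 16, 4, 12 and 0 to 19 in the same order. With the same thresholds on DESeq2 values, as the study's methods pair them, an alternative chosen after seeing the data, 16 members and 14 signalling genes were called in LJP against Vehicle (5.66% of the genes tested), 10 and 5 in LJP against Sham (4.32%), and 20 and 21 in Vehicle against Sham (14.6%). In LJP against Sham the 3 members became 7 with DESeq2 and with these thresholds on edgeR values, 12 with the 2 groups alone, 2 with the replicate block and 2 to 7 with each mouse left out, where 7.65%, 5.9%, 23.8%, 2.64% and 2.2 to 13.3% of the genes tested were called. The 2 signalling genes became 5 with DESeq2 and with these thresholds on edgeR values, 15 with the 2 groups alone, 0 with the replicate block and 0 to 8 with each mouse left out. Members under the filter that did not overlap numbered 4 to 5, 1 to 2 and 4 to 5 in the 3 comparisons with each mouse left out. None of the 27 log2 fold changes of the members called or smallest in p turned its direction under the alternatives, and neither did those of the 3 signalling genes with the smallest p in each comparison and of Tnfrsf25 in LJP against Vehicle (10 values under 18 settings each, added after seeing the data). No other call of a count was changed by the replicate block. Another scaling moved the median of all genes by at most 0.0769 on the log2 scale. Of the ligands, 11 of 19 were too scarce for the fit, and the part of depth in this was not tested. The cause of the changes with single mice was not tested.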
